A study of Komagataella phaffii with 72 samples.

Results

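GQ67_02261 is the K. phaffii gene that a supplementary gene list of the study names YFL040W, after a putative transporter of baker's yeast, and it was followed as 1 gene of the 5120 listed, over 72 RNA-Seq libraries. The gene was chosen by its measured levels in these libraries, by their strain and clone differences, so its levels and fold changes are given as a description with no test. K. phaffii (Pichia pastoris) is a methylotrophic yeast used as a host for secreted recombinant proteins. The libraries came from X-33, Y-48124, GS115, and Y-11430 cells that carried a transgene for rG-CSF (human granulocyte colony-stimulating factor, which the text of the study writes as rhG-CSF) or rhGH (human growth hormone). GS115 was obtained by mutagenesis of Y-11430 and carries a his4 mutation, and Y-48124 and X-33 descend from GS115. The study reports that both carry another substitution at the same HIS4 position and grow slowly without histidine. Both also carry an RCR2 mutation, and X-33 carries an RVB1 mutation. All 8 groups shared the pPICZ A vector, its resistance marker, the methanol-inducible AOX1 promoter in front of the transgene, and a culture of 24 hr in 4% glycerol followed by 24 hr in 1.5% methanol. No strain without a transgene and no culture in glycerol alone was among these libraries. Each group held 3 clones, which are separate transformants, and each clone was grown as 3 cultures, A, B, and C. The cultures of a clone share their transformation event, so they were averaged by clone first and the 3 clones were taken as the samples of a strain.

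In baker's yeast, YFL040W is an uncharacterized open reading frame whose product belongs to the sugar porter family of the major facilitator superfamily. Members of this family span the plasma membrane many times and carry sugars and related small molecules into the cell, and the substrate of YFL040W itself is not established. Yeast sugar transporters are typically regulated at the transcript level by the carbon source, and cells here had left glycerol for methanol. The role of the K. phaffii gene is known only through its likeness to the baker's yeast gene.

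Libraries held between 386665 and 33003281 counts. GQ67_02261 was detected in every library, with 66 to 19491 counts, a range for which counting alone gives an SD of 0.01 to 0.18 on the log2 scale. Levels are given as log2(TPM + 1), where TPM is the depth-scaled abundance of a transcript per unit of its length. Averaged over the 72 libraries, the level was 8.09, which placed the gene at rank 524 of the 5120 genes, above the median gene at 5.07. Each library was also compared with its own transgene. The transgene of the labelled product was between 8.50 and 16.14, and that of the other product between 4.06 and 7.98. Some libraries stood apart from their clone in the transgene. In GS115 rG-CSF clone 12, the transgene was at 10.49 in culture A, against 12.49 and 12.50 in cultures B and C. The library labelled X-33 rhGH 12A had an rhGH transgene level of 12.84 and a marker level of 8.88. Cultures B and C of that clone had 10.79 and 10.99 for the transgene and 6.49 and 6.28 for the marker. Y-11430 rhGH libraries ranged between 12.63 and 13.24 for the transgene and between 8.64 and 9.17 for the marker. The X-33 rhGH library labelled 12A was kept under its label, and the main values that rest on it are given with and without it.

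Among rG-CSF clones, GQ67_02261 lay within a narrow band in X-33 and Y-48124, was somewhat higher in GS115, and split widely in Y-11430. The 9 X-33 rG-CSF cultures had levels between 7.48 and 8.28 with a median of 8.00. The 9 Y-48124 rG-CSF cultures had levels between 7.29 and 8.50 with a median of 7.64. In GS115 rG-CSF the lowest, median, and highest of the 9 cultures were 8.04, 8.46, and 9.35. GS115 and X-33 thus overlapped only between 8.04 and 8.28, and 1 culture of Y-48124, 14A, exceeded the GS115 median. In Y-11430 rG-CSF the 9 cultures ran between 5.05 and 9.18 with a median of 8.65, so this group held both the lowest values of any rG-CSF culture and levels close to the highest of GS115. Means over clones were 7.93 ± 0.21 in X-33, 7.72 ± 0.31 in Y-48124, 8.58 ± 0.32 in GS115, and 7.57 ± 2.11 in Y-11430 (SD, n = 3 clones each).

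**Figure D1:**
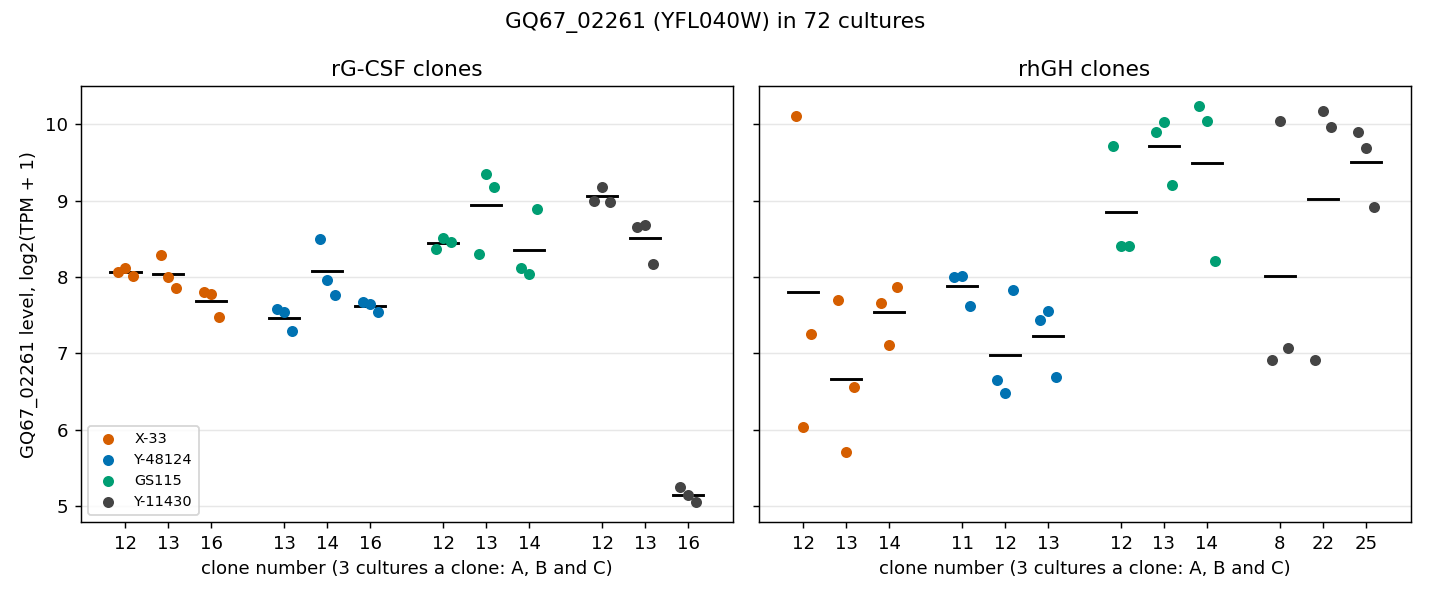
Level of GQ67_02261 as log2(TPM + 1) in each of the 72 cultures, by clone number along the x axis, with rG-CSF clones on the left and rhGH clones on the right; points are cultures A, B, and C, black lines are clone means, and colors are strains. The 3 cultures of Y-11430 rG-CSF clone 16 sit between 5.05 and 5.25, and the cultures of several rhGH clones lie far apart.

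Y-11430 rG-CSF clone 16 set the spread of its group. Its cultures A, B, and C had 5.25, 5.14, and 5.05, from 141, 106, and 121 counts. Those of the sister clone 12 ran between 8.98 and 9.18, and the sister clone 13 had 8.65, 8.68, and 8.17. All 3 cultures of clone 16 therefore lay below all 6 cultures of its sisters, with no overlap. Clone 16 averaged 5.15 ± 0.10, against 9.05 ± 0.11 in clone 12 and 8.50 ± 0.29 in clone 13 (SD, n = 3 cultures each). The difference between clone 16 and the mean of clones 12 and 13 was -3.63, or a 12.4-fold lower level. Clone 16 had the lowest mean of all 24 clones. The range over the 3 clone means was 3.91, and it ranked 38 of the 4398 genes whose mean level over clones was at least 3. The median range of those genes in this group was 0.70. The gene was chosen with this spread in view, so its rank is a description only. Leaving out culture A, B, or C moved the range only between 3.84 and 3.99.

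Clone 16 also differed from its sisters in many other genes and in its transgene. Of the 4398 genes, 523 were higher by more than 1 on the log2 scale in clone 16 than in the mean of clones 12 and 13, and 538 were lower by more than 1. The rG-CSF transgene was at 16.06, 16.14, and 16.07 in the 3 cultures of clone 16, against 13.52 to 13.74 in clone 12 and 12.62 to 12.73 in clone 13. It took between 7.02% and 7.40% of all counts in clone 16, against 1.10% to 1.30% in clone 12 and 0.60% to 0.66% in clone 13. Clone 16 thus combined the highest transgene level of the 12 rG-CSF clones with the lowest level of GQ67_02261. The selection marker did not follow the transgene, with a mean of 6.52 in clone 16, against 8.62 in clone 12 and 7.42 in clone 13. The part of transgene load in the level of GQ67_02261 was not tested.

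Among the other rG-CSF clones, the transgene and GQ67_02261 did not keep 1 order over the strains. In GS115 rG-CSF, clone 13 had the highest transgene mean of its strain, 13.76, and also the highest mean of GQ67_02261, 8.94. The lowest transgene mean of GS115 rG-CSF, 9.85 in clone 14, came with 8.35. In X-33 rG-CSF, the same 2 ends were clone 13, with a transgene mean of 13.49 and a GQ67_02261 mean of 8.04, and clone 16, with 10.83 and 7.69. Y-48124 rG-CSF ran the other way, since clone 13 with a transgene mean of 12.83 had 7.47, and clone 14 with 9.11 had 8.07. Within Y-11430 itself, clone 12 exceeded clone 13 in both the transgene and GQ67_02261. The number 16 names unrelated transformants in different strains, and clones 16 of X-33 and Y-48124 had GQ67_02261 means of 7.69 and 7.62.

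**Figure D2:**
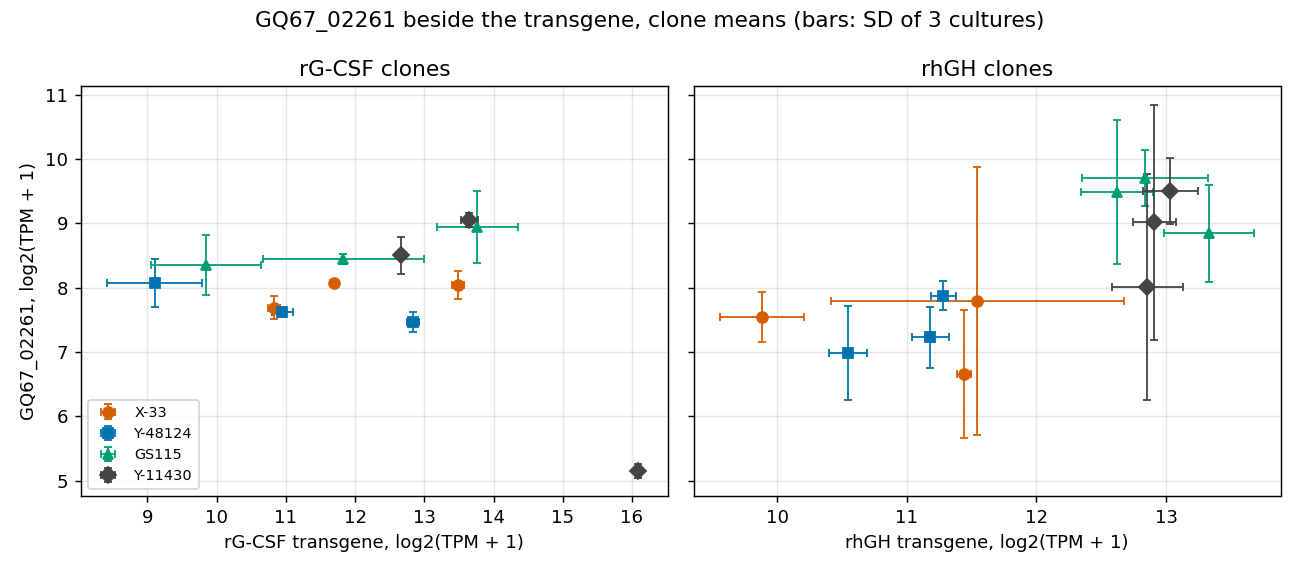
Clone means of GQ67_02261 against clone means of the transgene of the same library, both as log2(TPM + 1), for the 12 rG-CSF clones on the left and the 12 rhGH clones on the right; bars are the SD of 3 cultures. Y-11430 rG-CSF clone 16 lies alone at a transgene mean of 16.09 and a GQ67_02261 mean of 5.15.

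In rhGH clones the picture by strain was different. X-33 and Y-48124 had the lowest levels, and GS115 and Y-11430 the highest. The lowest, median, and highest of the 9 cultures were 5.71, 7.26, and 10.10 in X-33 rhGH, and 6.48, 7.56, and 8.01 in Y-48124 rhGH. GS115 rhGH cultures had 8.20, 9.72, and 10.23 by the same measures, and Y-11430 rhGH cultures had 6.91, 9.69, and 10.17. No Y-48124 culture reached the lowest GS115 culture, and in X-33 the library labelled 12A alone did. Means over clones were 7.33 ± 0.60 in X-33, 7.36 ± 0.46 in Y-48124, 9.35 ± 0.45 in GS115, and 8.84 ± 0.76 in Y-11430 (SD, n = 3 clones each). Without the library labelled 12A, X-33 averaged 6.95 ± 0.51 (SD, n = 3 clones).

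The cultures of an rG-CSF clone differed from each other far less than those of an rhGH clone. Pooled over clones, the SD between cultures of a clone was 0.28 in the 36 rG-CSF libraries and 1.12 in the 36 rhGH libraries. The median gene had 0.25 in rG-CSF and 0.36 in rhGH libraries. The SD of GQ67_02261 ranked 1698 of 4398 genes in rG-CSF libraries and 63 of 4398 in rhGH libraries. Without the X-33 rhGH library labelled 12A, the SD in rhGH libraries was 0.98 and ranked 115. By strain, the SD between rG-CSF cultures was 0.17 in X-33, 0.24 in Y-48124, 0.43 in GS115, and 0.19 in Y-11430. The SD between rhGH cultures was 1.35 in X-33, 0.52 in Y-48124, 0.82 in GS115, and 1.49 in Y-11430, and in X-33 it was 0.78 without that library. Each strain thus had the smaller SD in its rG-CSF libraries.

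Y-11430 rhGH shows this spread in its single cultures. Cultures A, B, and C of clone 8 had 6.91, 10.04, and 7.07. Those of clone 22 had 6.91, 10.17, and 9.96, and those of clone 25 had 9.90, 9.69, and 8.92. Clone 8 and clone 22 thus each contained cultures that differed by over 8-fold, with a highest-to-lowest ratio of 8.74 in clone 8 and 9.57 in clone 22, against 1.97 in clone 25. These differences had no counterpart of that size in the rhGH transgene, which lay between 12.63 and 13.24 in all 9 cultures. Nor were the low cultures at the limit of detection, since the gene had 257, 2234, and 130 counts in clone 8 and 363, 2356, and 1586 in clone 22. Other genes differed too. Culture 8B differed from the mean of its sister cultures by more than 1 on the log2 scale in 721 of the 4398 genes, and its median absolute difference, 0.44, was the largest of the 72 libraries. The corresponding count was 638 for culture 22A, which had the rank 3 by that difference.

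In X-33 rhGH, clone 12 had 10.10, 6.03, and 7.26 in cultures A, B, and C. Clone 13 had 7.70, 5.71, and 6.56, and clone 14 had 7.66, 7.10, and 7.87. Only the library labelled 12A exceeded 7.87 among the X-33 rhGH libraries. In GS115 rhGH, clone 14 had 10.23, 10.05, and 8.20, clone 12 had 9.72, 8.41, and 8.40, and clone 13 had 9.89, 10.03, and 9.21. One or more cultures of each GS115 rhGH clone exceeded the highest GS115 rG-CSF culture, at 9.35.

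The strain contrasts were estimated with edgeR on counts summed by clone, with all genes that passed the filter on low counts in the fit. Against Y-11430 in rhGH clones, the log2 fold change was -1.25 (SE 0.44) in X-33, -1.73 (SE 0.45) in Y-48124, and -0.10 (SE 0.43) in GS115. X-33 thus had a 2.37-fold and Y-48124 a 3.31-fold lower level than Y-11430. Only 43 of the 5001 genes fitted had a larger log2 fold change, in either direction, in Y-48124 against Y-11430, and 79 did in X-33 against Y-11430. The gene was chosen by its strain differences, so these counts are a description only. Clone means did not overlap in these 2 pairs. The highest X-33 and Y-48124 clones were at 7.80 and 7.88, and the lowest Y-11430 clone was at 8.01, a gap that is small beside the SD of 1.76 between the cultures of that Y-11430 clone. Without the X-33 rhGH library labelled 12A, the log2 fold change in X-33 was -2.32 (SE 0.28), clone 12 averaged 6.64, and the highest X-33 clone was at 7.54. GS115 and Y-11430 overlapped, with clone means between 8.84 and 9.71 in GS115 and between 8.01 and 9.50 in Y-11430. On clone means of log2(TPM + 1) that difference was 0.51 in favor of GS115, less than the pooled SD of 0.63 between clones. The median gene was 0.33 higher in GS115 on that scale.

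Against Y-11430 in rG-CSF clones, no strain had a difference larger than its error. The log2 fold change was -0.35 (SE 0.62) in X-33, -0.46 (SE 0.63) in Y-48124, and 0.13 (SE 0.62) in GS115. These values depended on which Y-11430 clones were kept. Without clone 16 they were -0.88 (SE 0.27) in X-33, -0.99 (SE 0.27) in Y-48124, and -0.40 (SE 0.27) in GS115. Without clone 12 they were 0.24 (SE 0.66) in X-33, 0.13 (SE 0.66) in Y-48124, and 0.71 (SE 0.67) in GS115. They also changed between counts summed by clone and clone means of log levels. On clone means of log2(TPM + 1) the differences were 0.36 in X-33, 0.15 in Y-48124, and 1.01 in GS115, each below the pooled SD of about 1.50 to 1.51 between clones. The median gene differed by 0.05, -0.04, and 0.22 on that scale, in the same order of strains. Clone means of log2(CPM + 1), where CPM is the count scaled to library depth, gave 0.35, 0.16, and 1.07. The direction of X-33 and Y-48124 against Y-11430 in rG-CSF clones thus differed between summed counts and clone means of log levels. It also differed with the clone left out.

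GS115 against the mean of the other strains had a log2 fold change of 0.40 (SE 0.50) in rG-CSF clones and 0.89 (SE 0.34) in rhGH clones. The rhGH value was 1.25 (SE 0.21) without the X-33 library labelled 12A. On clone means of log2(TPM + 1) the differences were larger, at 0.84 in rG-CSF and 1.50 in rhGH clones. The median gene was itself higher in GS115 on that scale, by 0.24 in rG-CSF and 0.46 in rhGH clones. In the fits from counts the median gene was at 0.05 in both. In both products, the 3 GS115 clones had higher means than every X-33 and Y-48124 clone. The GS115 clones lay between 8.35 and 8.94 in rG-CSF, where the highest clone of X-33 or Y-48124 was at 8.07. They lay between 8.84 and 9.71 in rhGH, where the highest such clone was at 7.88.

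For the product, rG-CSF over rhGH, the log2 fold change was -0.16 (SE 0.59) in X-33, 0.21 (SE 0.59) in Y-48124, -0.84 (SE 0.59) in GS115, and -1.08 (SE 0.59) in Y-11430. With all libraries kept, clone means overlapped between the products in every strain. In GS115 they met only between clone 13 of rG-CSF, at 8.94, and clone 12 of rhGH, at 8.84. Without the X-33 rhGH library labelled 12A, they did not overlap in X-33. The highest rhGH clone was then at 7.54 and the lowest rG-CSF clone at 7.69. The X-33 log2 fold change was 0.90 (SE 0.52) without that library. With the library kept, the X-33 difference was 0.60 on clone means of log2(TPM + 1) and 0.58 on those of log2(CPM + 1). Its direction thus changed with that library, and between summed counts and clone means of log levels. The Y-11430 value was -0.55 when rG-CSF clone 16 was left out and -1.67 when rG-CSF clone 12 was left out. Whether the product difference itself differs between strains was not tested.

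Ordered by the mean over clones, the groups ran from GS115 rhGH at 9.35 through Y-11430 rhGH at 8.84, GS115 rG-CSF at 8.58, X-33 rG-CSF at 7.93, Y-48124 rG-CSF at 7.72, Y-11430 rG-CSF at 7.57, and Y-48124 rhGH at 7.36 to X-33 rhGH at 7.33. Only 1 step between neighbours in this order exceeded the spread of the clones, that of 0.65 between GS115 rG-CSF and X-33 rG-CSF, where the clone ranges did not overlap and the pooled SD was 0.27. The other neighbours overlapped. Over all 24 clones the means spanned 4.56, against a median span of 1.79 over the 4398 genes.

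The genes with the adjoining identifiers were read beside it. Their positions are not given in the sources used here, so whether they lie next to each other on the chromosome or share reads is not known. GQ67_02262 was well expressed and set GS115 apart. Its mean over clones was 7.26 in X-33, 7.28 in Y-48124, 8.87 in GS115, and 7.51 in Y-11430 for rG-CSF, and 7.25, 7.07, 9.41, and 7.56 in the same order for rhGH. In clone 16 of Y-11430 rG-CSF it was at 7.31, against 7.55 in clone 12 and 7.68 in clone 13, so it did not share the low level of GQ67_02261 there. GQ67_02260 was weakly expressed, between 2.88 and 3.42 in the group means, and was at 2.01 in clone 16, against 3.51 and 3.26 in clones 12 and 13.

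The culture-to-culture differences in rhGH libraries were shared by GQ67_02262. After the mean of each clone was taken away, the 2 genes had a Pearson r of -0.09 over the 36 rG-CSF cultures and of 0.91 over the 36 rhGH cultures. The value in rhGH cultures was the highest among the 4397 other genes, of which 23 had an r above 0.8. The r was 0.89, at rank 3, without the X-33 rhGH library labelled 12A. By strain the r in rhGH cultures was 0.93 in X-33, 0.54 in Y-48124, 0.94 in GS115, and 0.94 in Y-11430, over 9 cultures each, and 0.73 in X-33 without that library. Within a strain many genes had a higher r, since GQ67_02262 ranked 20 of 4397 genes in X-33, 668 in Y-48124, 441 in GS115, and 116 in Y-11430. The size of the swing was smaller in GQ67_02262. In clone 8 of Y-11430 rhGH it was at 6.76, 7.95, and 7.15 in cultures A, B, and C, and in clone 22 at 7.01, 8.01, and 7.88, the same order in which GQ67_02261 was low and high. In clone 12 of X-33 rhGH it was at 7.91, 6.88, and 7.14. Both values of a culture come from the same library, and this comparison was chosen after the data were seen. The deviations of GQ67_02261 also had an r of 0.64 with the rG-CSF transgene over rG-CSF cultures and of 0.59 with the rhGH transgene over rhGH cultures. With the log2 total count the r was -0.25 in rG-CSF and -0.02 in rhGH cultures.

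**Figure D3:**
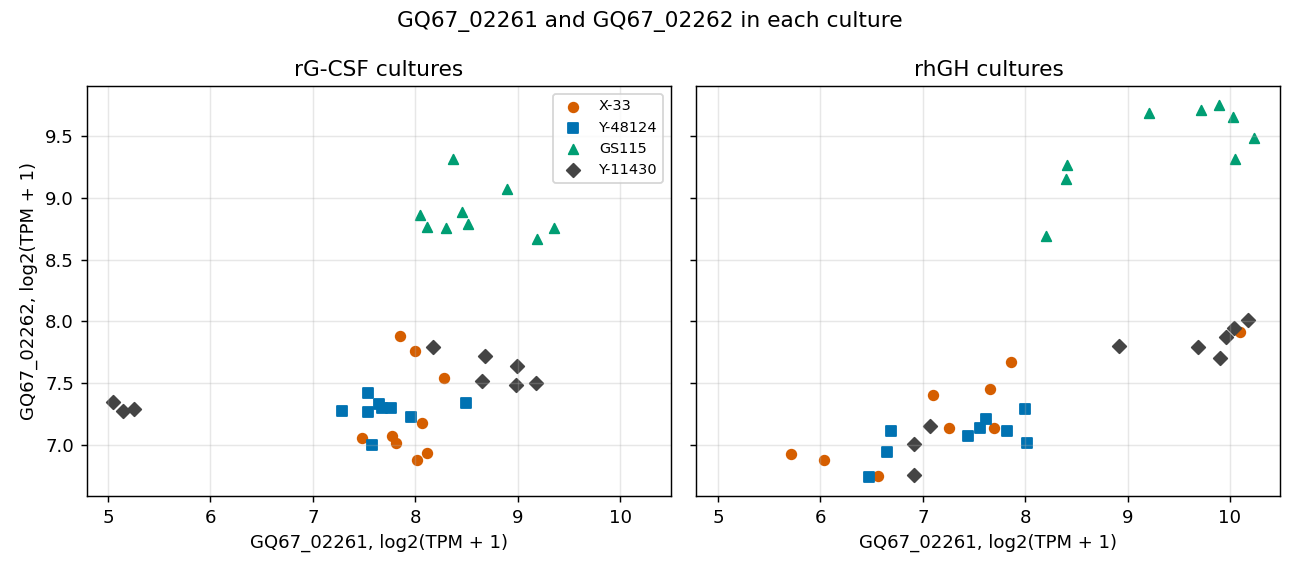
GQ67_02262 on the y axis against GQ67_02261 on the x axis, both as log2(TPM + 1), with 1 point per culture and 36 cultures in each panel, rG-CSF on the left and rhGH on the right. In the rhGH panel both genes go up together most clearly in GS115, on a higher line, and in Y-11430. After clone means were taken away, r was 0.54 in Y-48124 and 0.73 in X-33 without the library labelled 12A. In the rG-CSF panel the 3 low points at 5.05 to 5.25 are Y-11430 clone 16.

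Over the 24 clone means, the genes whose pattern was most like that of GQ67_02261 were GQ67_04321, with a Pearson r of 0.87, and GQ67_04230, with 0.82. Those least like it were GQ67_02643, with -0.65, and GQ67_01536, with -0.61. The files pair none of the 4 with a name. GQ67_04321 was at 4.41 in clone 16, against 5.77 and 5.52 in clones 12 and 13, and its group means were highest in GS115, at 6.11 in rG-CSF and 6.38 in rhGH. GQ67_02643 had the opposite pattern in clone 16, where it was at 7.35, against 4.91 and 4.64 in clones 12 and 13. These values lean on that clone. Without it, the r of GQ67_04321 was 0.80 and only 2 of the 20 most alike genes were the same, while the r of GQ67_01536 was -0.26.

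**Figure D4:**
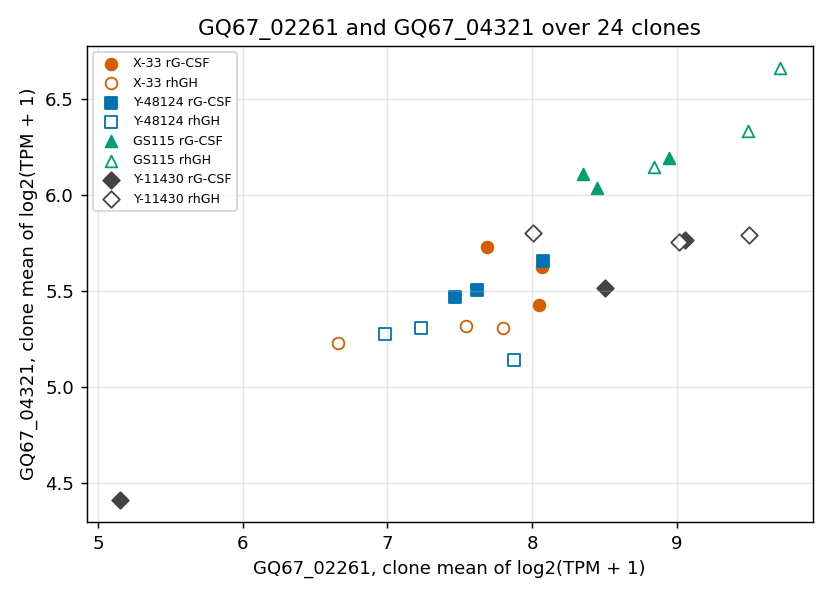
Clone means of GQ67_04321 against those of GQ67_02261, both as log2(TPM + 1), for 24 clones; filled symbols are rG-CSF clones, open symbols rhGH clones, and colors and shapes are strains. Clone 16 of Y-11430 rG-CSF is the point at 5.15 and 4.41, far from the rest, and the GS115 clones lie above the others.

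The supplementary list that names YFL040W holds 20 genes, which the study took by their loadings on a principal component of all its strains, without a transgene and in glycerol, that it used to describe GS115. Genes with positive loadings, YFL040W among them, form one side of the list and genes with negative loadings the other. The 19 others give the background for GQ67_02261 in the present libraries, grown in methanol and carrying a transgene. In rG-CSF clones, 5 of the 19 were called higher in GS115 than in the mean of the other strains and 9 were called lower, at a Benjamini-Hochberg adjusted p below 0.05 from the edgeR quasi-likelihood fit, while 28.6% of all genes tested were called higher and 23.1% lower. In rhGH clones, the counts were again 5 higher and 9 lower, while 36.3% of all genes tested were called higher and 32.8% lower. The same 5 were higher and the same 9 lower in both products. The 5 are 26.3% of the 19, below the share of all genes called higher in each product. The 9 are 47.4%, above the share called lower. The share of all genes called alike in both products was not taken. The median log2 fold change of the 19 genes was -0.38 in rG-CSF clones and -0.56 in rhGH clones, against 0.05 over all genes in both.

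Of the 9 others with positive loadings, the side of YFL040W, 5 were higher in GS115, 2 were lower, and 2 were not called, in each product. NIT1, a nitrilase in baker's yeast, had a log2 fold change of 4.93 (SE 0.30, adjusted p = 2.82e-07, edgeR) in rG-CSF clones and of 5.39 (SE 0.16, adjusted p = 2.51e-12, edgeR) in rhGH clones. Its means in rG-CSF were 9.67 in GS115, against 4.67 in X-33, 4.70 in Y-48124, and 4.39 in Y-11430, with no overlap of clones. YDL218W, a baker's yeast gene of unknown function, had 1.46 (SE 0.33, adjusted p = 0.00286, edgeR) and 0.77 (SE 0.21, adjusted p = 0.00366, edgeR). FLO11-BSC1, named after a cell surface flocculin, was not called in either product, with 0.25 (SE 0.40) and -0.54 (SE 0.24). The corresponding values of GQ67_02261 were 0.40 and 0.89.

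Of the genes with negative loadings, 7 of 10 were lower in GS115 and 3 were not called, in each product. PDR12, a plasma membrane exporter of weak organic acids, had -4.36 (SE 0.43, adjusted p = 7.75e-06, edgeR) in rG-CSF clones and -4.96 (SE 0.24, adjusted p = 9.68e-11, edgeR) in rhGH clones. ZPS1, a secreted protein known for its induction at low zinc, had -2.35 (SE 0.40) and -0.66 (SE 0.19). FRE1, a ferric and cupric reductase of the cell surface, had -0.73 (SE 0.25) and -0.61 (SE 0.18). ZPS1 and FRE1 were called lower in both products, with edgeR adjusted p of 0.000476 and 0.0282 in rG-CSF clones and of 0.00515 and 0.00617 in rhGH clones. CTR1, the high-affinity copper transporter, was not called, with -0.11 (SE 0.27) and -0.56 (SE 0.25). In clone 16 of Y-11430 rG-CSF, the 19 other listed genes differed from the mean of clones 12 and 13 by up to 2.88 in size, against 3.63 for GQ67_02261, which was chosen with this spread known. Among the named ones, PDR12 differed by -1.30, ZPS1 by 0.96, NIT1 by 0.70, CTR1 by 0.63, FRE1 by 0.50, YDL218W by 0.12, and FLO11-BSC1 by 0.06.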

How the data were processed

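The authors made 3′ DGE (3′ tag) libraries and quantified them with Salmon 0.9.1 on 1 transcript per gene, extended by 100 nt at the 3′ end (bedtools 2.26.0), with the transgenes included. Whole-number counts were deposited without normalization, and because merging by molecular identifier is not stated, SDs from counts cover counting error only. The deposited log2 table holds log2(TPM + 1). Columns named WT were taken as Y-11430 by clone number and culture letter.

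Log2(TPM + 1) was averaged by clone. Fold changes came from edgeR 4.0.16 (R 4.3.3; TMM, filterByExpr) on counts summed by clone, with 12 clones in a product's fit and 24 for product contrasts, and the listed genes were called at an adjusted p under 0.05 over all genes. Each SE was derived from the fit, as the absolute log2 fold change divided by the square root of the quasi-likelihood F statistic. The fit was tested on simulated data. Pairs of cultures of a clone had a chi-square per degree of freedom of 2.03 to 82.7, and no library was dropped. The gene, lists, and rules were chosen with earlier results of these data known. Named genes were GQ67_02261, the transgenes, listed genes with a symbol, the 2 most and 2 least alike genes with a mean of at least 3, and the adjoining identifiers. Alternatives used DESeq2 1.42.0, limma 3.58.1, other scales, a replicate block, and each clone left out. None of the identifiers matched the RefSeq gene table (0 matches), so positions and sequences were not used here. Python 3.11.15, NumPy 2.4.6, pandas 2.3.3, SciPy 1.17.1, and Matplotlib 3.10.9 were used.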

Additional observations from a re-analysis of the deposited data

Results flagged for a closer look

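In X-33 rhGH, the library labelled 12A had a GQ67_02261 level of 10.10 on the log2(TPM + 1) scale, while the other 8 libraries of the group lay between 5.71 and 7.87. Its gap to the next library was 0.51 of the whole range of the 9 libraries, above the limit of 0.493 for 9 values. Each of the 8 groups was examined in this way. The limit is one that chance alone passes in about 1 in 20 groups of independent values. That rate does not hold here, since the gene was chosen by its levels and the cultures of a clone are not independent. The gap of the library labelled 12A is therefore given as a description with no test. The rhGH transgene and the marker were also higher in this library than in cultures B and C of its clone, at 12.84 against 10.79 and 10.99 for the transgene. By its median absolute difference from its sister cultures over genes, 0.35, the library had rank 7 of the 72 libraries. Whether the library holds the labelled cells was not tested.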

How the results depend on the processing

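Of 209 alternative values of the fold changes of GQ67_02261, 198 lay within the SD between clones of the value given, and 23 had the opposite sign. That SD was 1.47 to 1.48 for strains over Y-11430 in rG-CSF clones. A value there could change sign and still lie within it, as X-33 did with -0.35 from counts and 0.36 on clone means of log2(TPM + 1). In rhGH clones, X-33 over Y-11430 was -0.28 with DESeq2's shrinkage and -2.32 without the X-33 rhGH library labelled 12A, and it ran between -2.21 and -0.87 when single clones were left out. Y-48124 over Y-11430 was -0.56 with shrinkage. GS115 over Y-11430 was 0.42 with shrinkage, 0.51 on clone means of log2(TPM + 1), 0.54 on log2(CPM + 1), and 0.51 on log2(TPM + 0.1), against -0.10 from the edgeR fit. DESeq2 without shrinkage gave -1.26, -1.72, and -0.15 for X-33, Y-48124, and GS115 over Y-11430 in rhGH clones. For rG-CSF over rhGH, GS115 had -0.13 with shrinkage, and X-33 had 0.90 without the X-33 rhGH library labelled 12A and between -0.53 and 0.80 when single clones were left out. Leaving out single clones gave 0.22 to 0.59 for GS115 over the other strains in rG-CSF clones and 0.73 to 1.21 in rhGH clones. Among the listed genes, 80 of 82 alternative counts were within 1.5 times the count given, and both others were 5 called lower in rhGH clones, with a fold change limit of 1 and with limma on clone means. With cultures as replicates and the culture letter as a replicate block, X-33, Y-48124, and GS115 over Y-11430 were -1.47, -1.72, and -0.31 in rhGH clones, and 10 listed genes were called lower. Whether the letters pair the cultures is not known. Deviations of same-letter cultures had a mean correlation of 0.01 in rG-CSF and 0.02 in rhGH libraries, against -0.01 in both for other letters. Of 36 libraries, 18 in rG-CSF and 16 in rhGH were closest to their own letter. Both counts exceed an even split over the 3 letters. The cause of the shifts in fold change was not tested. The gene had at least 66 counts in each library. Counts summed by clone give more weight to deep libraries. In GS115 rG-CSF clone 14, culture A held 19491 of the 27341 counts of the gene.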
